A study of Mus musculus with 4 samples.

Results

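Long noncoding RNA genes are represented here by a run of Ensembl mouse gene identifiers from ENSMUSG00000084800 to ENSMUSG00000087399, a range made up mostly of manually annotated long noncoding RNAs. The table held 2119 identifiers in that range. The rule left out 1 of them, which leaves 2118 start site windows of the 51121 in the table (4.14%). The range is a proxy for gene class: the files pair no identifier with a gene name or biotype, so the share of long noncoding RNAs among these windows was not measured. They are called noncoding-range windows below. They were set beside the 17863 windows with identifier numbers below 64000, which are mostly protein-coding and are called coding-range windows.

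Each window held the reads counted around 1 transcription start site in splenic regulatory T cells (Tregs) of C57BL/6 mice. The control cells carried Foxp3-cre with intact alleles (Foxp3creKAP1+/+), and the KAP1-deficient cells carried Foxp3-cre with floxed KAP1 (Foxp3creKAP1f/f). Both groups therefore carry Foxp3-cre, a recombinase driven from the locus of the factor that defines Tregs. The extent of KAP1 loss, the age of the mice and the number of animals were not given in the sources used here. The column headings name the genotype and not the antibody. The series describes an H3K9me3 immunoprecipitate and an input of each genotype. The columns were read as the immunoprecipitates from the study's description, which does not say whether input was taken into account in the counts; the input libraries were not analysed here. If that reading is wrong, the values below describe other reads than H3K9me3 reads. With 1 column for each genotype, all intervals below cover counting error only, compare these libraries rather than the genotypes, and treat reads and windows as independent.

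Long noncoding RNAs are transcripts that do not encode proteins. Many start beside or antisense to coding genes, and many of their start sites and exons lie in or near transposable elements. KAP1 (TRIM28) is a corepressor brought to DNA by KRAB zinc finger proteins. It recruits H3K9 methyltransferase activity, and the resulting H3K9me3 is a mark of silent chromatin best known at endogenous retroviruses and other repeats. Start sites of active coding genes usually carry little of it. In the absence of gene names, positions and window sequences, neither the neighbouring genes nor the repeats at these start sites were analysed here, and the KAP1 gene itself was not examined.

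Noncoding-range windows held fewer reads than coding-range windows in both libraries. In the KAP1-sufficient library they had a median of 10 reads per window, with quartiles of 7 and 14 and a highest value of 46. Coding-range windows had a median of 12, quartiles of 8 and 16 and a highest value of 36. The mean was 10.6 reads per noncoding-range window (exact 95% Poisson interval 10.4 to 10.7) and 11.99 per coding-range window (11.94 to 12.04). The noncoding range was thus at 0.88 of the coding range (0.87 to 0.90) in this library. In both libraries the intervals of mean reads and of their quotients leave out the variation between windows given below.

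The KAP1-deficient library showed a smaller gap. Noncoding-range windows had a median of 5 reads there, with quartiles of 3 and 7 and a highest value of 31. Coding-range windows had the same median and quartiles, and a highest value of 28. The mean was 4.97 reads per noncoding-range window (4.87 to 5.06) and 5.39 per coding-range window (5.36 to 5.42), a quotient of 0.92 (0.90 to 0.94). Against the mean of all windows, the noncoding range was 1.13 times higher in the KAP1-sufficient and 1.11 times higher in the KAP1-deficient library, because the 31140 windows in neither range averaged only 7.83 and 3.89 reads.

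**Figure D1:**
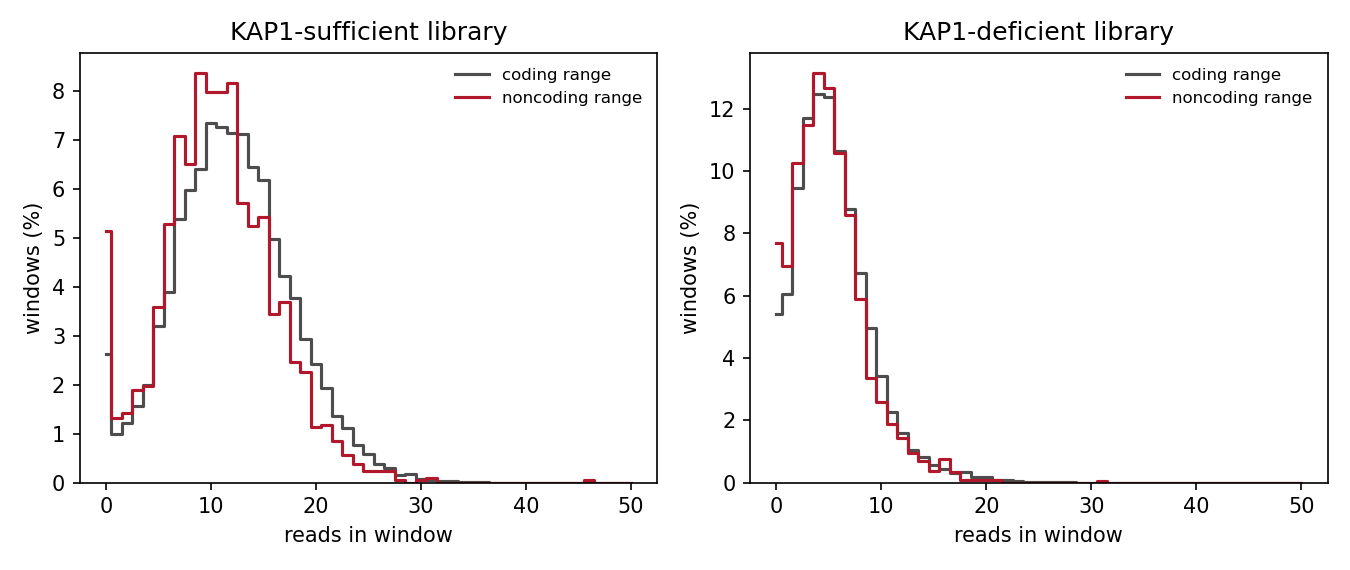
Share of windows (vertical axis, percent) by the number of reads in a window (horizontal axis) in each library, for noncoding-range (red) and coding-range windows (grey). The noncoding range peaks slightly further left in the KAP1-sufficient library and has a taller spike at 0 reads, 5.15% against 2.62%.

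Empty windows were more frequent in the noncoding range. No read from either library fell in 96 of its windows, 4.53% (exact 95% binomial interval 3.69 to 5.51). In the coding range 418 windows were empty, 2.34% (2.12 to 2.57), and in the windows of neither range 5633 were, 18.1% (17.7 to 18.5). The odds of an empty window were 1.98 times higher in the noncoding than in the coding range (1.56 to 2.49). A count of 0 in a library has an upper 95% Poisson limit of 3.69 reads, and a floor of 3 reads is used for it below. Empty windows may be low in the mark or out of reach of the mapping, and these cannot be told apart here.

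The empty windows stood apart from the main body of the distribution in both ranges. Only 56 noncoding-range windows (2.64%) had 1 to 3 reads over both libraries, fewer than were at 0. In the coding range 372 windows (2.08%) had 1 to 3 reads, also fewer than the 418 at 0. A further 264 noncoding-range windows (12.5%) had 4 to 9 reads, 1121 (52.9%) had 10 to 19 and 486 (22.9%) had 20 to 29. Another 83 had 30 to 39 and 12 had 40 or more. Among windows with at least 1 read the gap to the coding range was smaller but still present. Their means were 11.1 against 12.3 reads in the KAP1-sufficient library, a quotient of 0.90, and 5.20 against 5.52 in the KAP1-deficient library, a quotient of 0.94.

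Windows empty in 1 library alone were few. In the KAP1-sufficient library alone 13 of the 2118 noncoding-range windows were at 0, and each held at most 2 reads in the other library. Another 67 lacked reads in the KAP1-deficient library only, with a median of 5 and at most 15 KAP1-sufficient reads. Of these 67, 15 held 10 KAP1-sufficient reads or more. The corresponding counts were 50 and 548 of 17863 coding-range windows, and 414 and 2171 of all 51121 windows. With windows empty in both libraries included, 7.70% of noncoding-range, 5.41% of coding-range and 16.3% of all windows lacked KAP1-deficient reads. For KAP1-sufficient reads the shares were 5.15%, 2.62% and 12.8%. The KAP1-deficient library was the shallower one, with 228009 reads in all windows against 480326.

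The 5 noncoding-range windows with the most reads held 43 to 77 reads over both libraries. ENSMUSG00000085255 held 46 KAP1-sufficient reads (95% Poisson interval 33.7 to 61.4) and 31 KAP1-deficient reads (21.1 to 44.0), the highest noncoding-range count in each library. Scaled to library totals, its ratio of KAP1-deficient to KAP1-sufficient reads was 1.42 (0.87 to 2.29). ENSMUSG00000085965 followed with 30 and 21 reads, a ratio of 1.47 (0.80 to 2.66). These counts did not separate the libraries, since both intervals included 1.

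The next 3 windows by total reads were alike. ENSMUSG00000085068 held 25 and 21 reads, a ratio of 1.77 (0.94 to 3.29). ENSMUSG00000086446 held 27 and 17, a ratio of 1.33 (0.68 to 2.52), and ENSMUSG00000086866 held 26 and 17, a ratio of 1.38 (0.70 to 2.64). All 5 ratios lay above 1, and each interval included 1. These windows were picked on the reads of both libraries, which favours windows high in either one.

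The windows on either side of each end of the identifier range held 3 to 18 reads in a library. The first window inside, ENSMUSG00000084800, held 18 KAP1-sufficient and 4 KAP1-deficient reads, and the window just below the range, ENSMUSG00000084799, held 14 and 9. The last window inside, ENSMUSG00000087399, held 7 and 4 reads, and the window just above, ENSMUSG00000087400, held 12 and 3. At these depths single windows cannot mark a boundary.

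Pooled over all of its windows, the noncoding range had nearly the same share of reads in both libraries. It held 22419 of the KAP1-sufficient reads (4.67%) and 10521 of the KAP1-deficient reads (4.61%), a ratio of KAP1-deficient to KAP1-sufficient reads of 0.99 (exact 95% interval 0.97 to 1.01) on the scale of library totals. The coding range had a ratio of 0.95 (0.94 to 0.95). The windows of neither range had a ratio of 1.05 (1.04 to 1.05). The noncoding range lay between them.

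The direct comparison gave a noncoding-range ratio 1.04 times that of the coding range (conditional exact 95% interval 1.02 to 1.07) and 0.94 times that of the windows in neither range (0.92 to 0.97). Single windows varied more than counting noise, as given below. With the interval against the coding range widened for that variation it was 1.02 to 1.07. Whether a ratio lies above or below 1 rests on the scaling: the noncoding-range ratio was 1.02 (0.99 to 1.04) with libraries scaled by the median of ratios and 1.04 (1.02 to 1.07) with libraries scaled to the coding-range windows. Without the 1% of windows with the most reads it was 0.97 (0.95 to 1.00). The quotient of 2 ranges does not change with the scaling. All 3 scalings remove a genotype difference in total H3K9me3.

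The KAP1-deficient to KAP1-sufficient ratio changed with read level within the noncoding range. Windows were sorted on a random 50% of their KAP1-sufficient reads, and the ratio was measured on the remaining KAP1-sufficient reads and all KAP1-deficient reads. In the 398 noncoding-range windows with 0 to 2 sorted reads the ratio was 0.91 (0.83 to 0.99). It was 0.95 (0.89 to 1.00) in the 505 windows with 3 to 4, 1.00 (0.95 to 1.06) in the 520 windows with 5 to 6 and 0.97 (0.93 to 1.02) in the 496 windows with 7 to 9. In the 199 windows with 10 or more it was 1.13 (1.05 to 1.22). The increase was not even, since neighbouring levels overlapped in their intervals up to 9 sorted reads and the values at 5 to 6 and at 7 to 9 were in reverse order.

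Windows with 10 or more sorted reads had a ratio 1.21 times that of windows with 4 or fewer (1.11 to 1.32). In the coding range the same quotient was 1.16 (1.13 to 1.19). The change in the noncoding range was 1.04 times that in the coding range, with an interval of 0.95 to 1.14 that included 1. A difference in the trend between the ranges was therefore not resolved at this depth, and a larger or a smaller change within that interval is compatible with the reads.

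**Figure D2:**
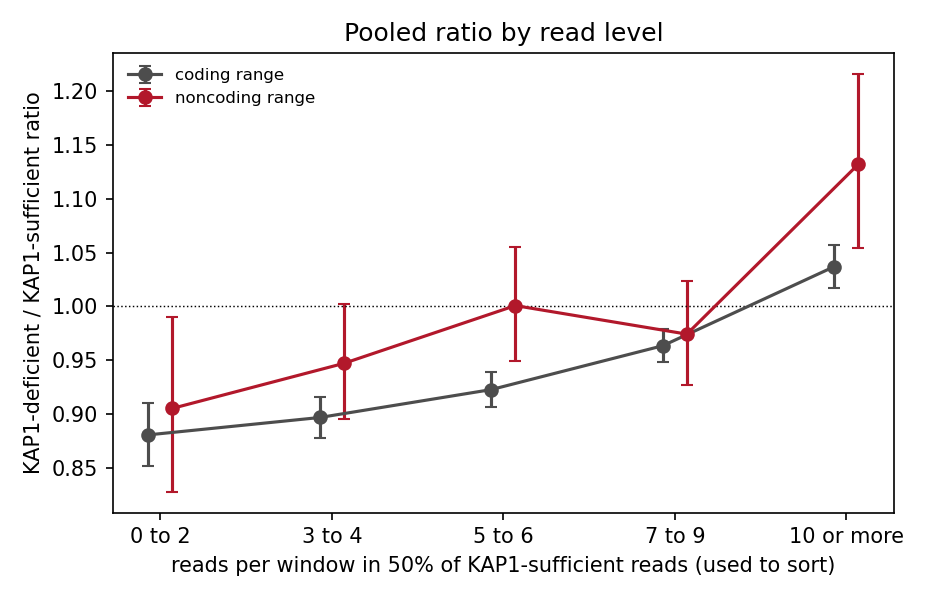
Pooled KAP1-deficient to KAP1-sufficient ratio (vertical axis, scaled to library totals) by the number of reads per window in the 50% of KAP1-sufficient reads used for sorting (horizontal axis), with exact 95% intervals as bars, for noncoding-range (red) and coding-range windows (grey). The red points run from 0.91 to 1.13 and the grey ones from 0.88 to 1.04, and each red point lies above the grey point of its level.

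At the same level of sorted reads the noncoding range stayed above the coding range taken as a whole. Its ratio was 1.03 times that of the coding range at 0 to 2 sorted reads (0.93 to 1.13), 1.06 times at 3 to 4 (0.99 to 1.12), 1.08 times at 5 to 6 (1.03 to 1.15), 1.01 times at 7 to 9 (0.96 to 1.07) and 1.09 times at 10 or more (1.01 to 1.18). It was above 1 at all 5 levels, and the interval excluded 1 at 2 of them. Combined over windows with an equal number of sorted reads, the quotient was 1.05 (Mantel-Haenszel, 95% interval 1.02 to 1.08), an alternative chosen after seeing the data. The pooled quotient, 1.04, was no larger than the one at equal sorted reads. Sorted reads are few per window and carry counting error, so windows equal in them can still differ in read level. The part of the quotient that is due to read level was therefore not determined.

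Mean KAP1-sufficient reads also differed along the identifiers within each range. Among the noncoding-range stretches the intervals of the empty share overlapped, and so did those of the ratio. In 4 equal stretches of the noncoding range the mean ran from 10.3 to 11.2 KAP1-sufficient reads per window, the share of empty windows from 3.63% to 5.03%, and the ratio from 0.95 to 1.02. The lowest ratio, 0.95 (0.91 to 1.00), was in the third stretch, and the highest, 1.02 (0.97 to 1.06), in the second. The first stretch had the most KAP1-sufficient reads, 11.2 per window (10.9 to 11.4), against 10.3 (9.99 to 10.5) in the second, the fewest of the 4. These Poisson intervals leave out the variation between windows given below. The quotient of the ratios of the second and the third stretch, the extremes of 4, was 1.07 (1.00 to 1.14) with a lower limit just under 1.

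The last stretch of the coding range was close to the noncoding range in ratio. Its 1784 windows, with identifier numbers from 56000, averaged 9.60 KAP1-sufficient reads, 6.17% of them were empty (5.09 to 7.38), and their ratio was 1.00 (0.97 to 1.02). The 7 earlier stretches had ratios of 0.93 to 0.95 and 1.41% to 3.44% empty windows. Set against this stretch alone, the noncoding-range ratio was 0.99 times as high (0.96 to 1.03). Set against the 7 earlier stretches it was 1.05 times as high (1.02 to 1.07). The difference in pooled ratio between the ranges therefore rested on coding-range identifier numbers below 56000 and is not particular to the noncoding range. The same holds for reads and empty windows: this stretch had fewer KAP1-sufficient reads per window than the noncoding range, and the empty share of the noncoding range was 0.74 times its own. This division of the coding range was chosen after seeing the data.

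**Figure D3:**
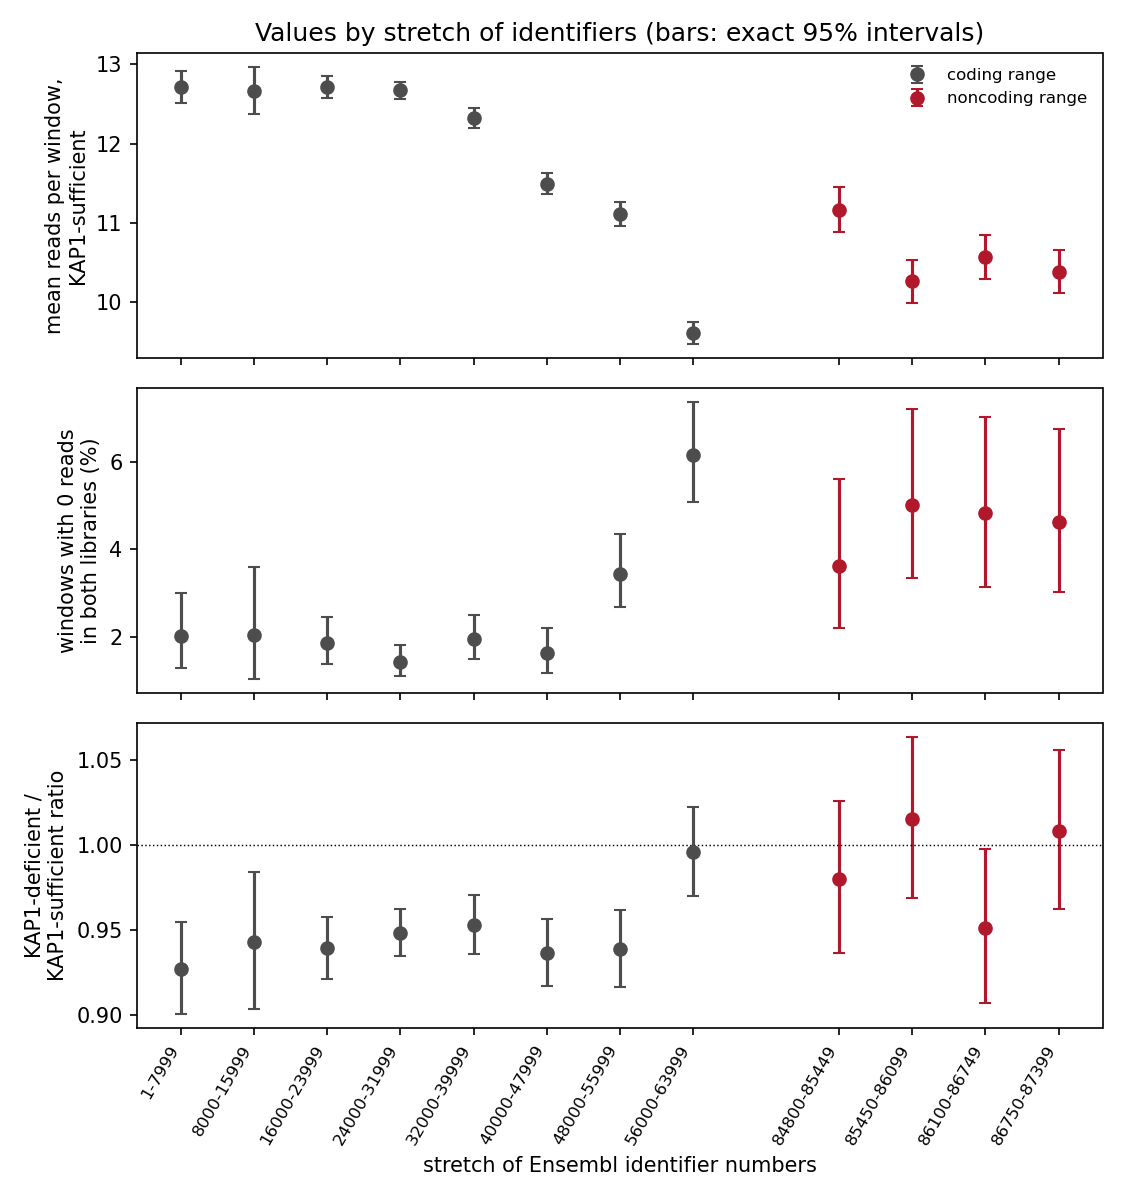
Mean KAP1-sufficient reads per window (top), percent of windows with 0 reads in both libraries (middle) and pooled KAP1-deficient to KAP1-sufficient ratio (bottom) by stretch of Ensembl identifier numbers, with exact 95% intervals as bars, for the 8 coding-range stretches (grey) and the 4 noncoding-range stretches (red). The last grey stretch sits apart from the other grey ones, at 9.60 reads, 6.17% and a ratio of 1.00.

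Read counts of noncoding-range windows varied beyond counting noise to nearly the same degree as those of coding-range windows. Over the 2022 noncoding-range windows with at least 1 read, the variance was 2.27 times the mean in the KAP1-sufficient and 2.21 times the mean in the KAP1-deficient library. With Poisson noise subtracted, the coefficient of variation between windows was 33.9% and 48.2%, and the coding range gave 33.0% and 48.1%. Counts in the 2 libraries correlated across noncoding-range windows with a Pearson r of 0.49 and Spearman's rho of 0.44, and the noise-subtracted correlation was 0.88. The coding range gave 0.50, 0.49 and 0.88. These correlations are across windows that share both libraries and, where start sites lie close together, may share reads, so they are descriptions only. The part of this variation that is H3K9me3, as against mappability or base composition, was not tested.

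Single noncoding-range windows were called different between the libraries about as often as windows of the whole table. A mean of 5 reads or more was reached by 1702 windows (80.4%). A window was called where its ratio, with 2 reads added, differed 2-fold or more and the exact 95% interval of its own ratio excluded 1. In the noncoding range 36 windows (2.12%, 95% interval 1.49 to 2.92) were called higher in the KAP1-deficient library, against 2.49% of all 35540 windows tested. A further 38 (2.23%, 1.58 to 3.05) were called lower, against 1.81% of all windows tested. Both intervals included the share of the whole table, so neither share set the noncoding range apart from it. In the coding range 1.80% were called higher and 2.24% lower.

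The typical noncoding-range window had nearly equal scaled reads in both libraries. Over the 1702 windows the log2 ratio had a median of -0.05, with quartiles of -0.50 and 0.39, and all windows tested had the same median and quartiles. In the coding range the median was -0.10. Placing the 15 noncoding-range windows with no KAP1-deficient read at 3 reads left the median at -0.05. The spread of single-window shares was 1.16 times the binomial variance in the noncoding range and 1.16 times in the coding range.

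**Figure D4:**
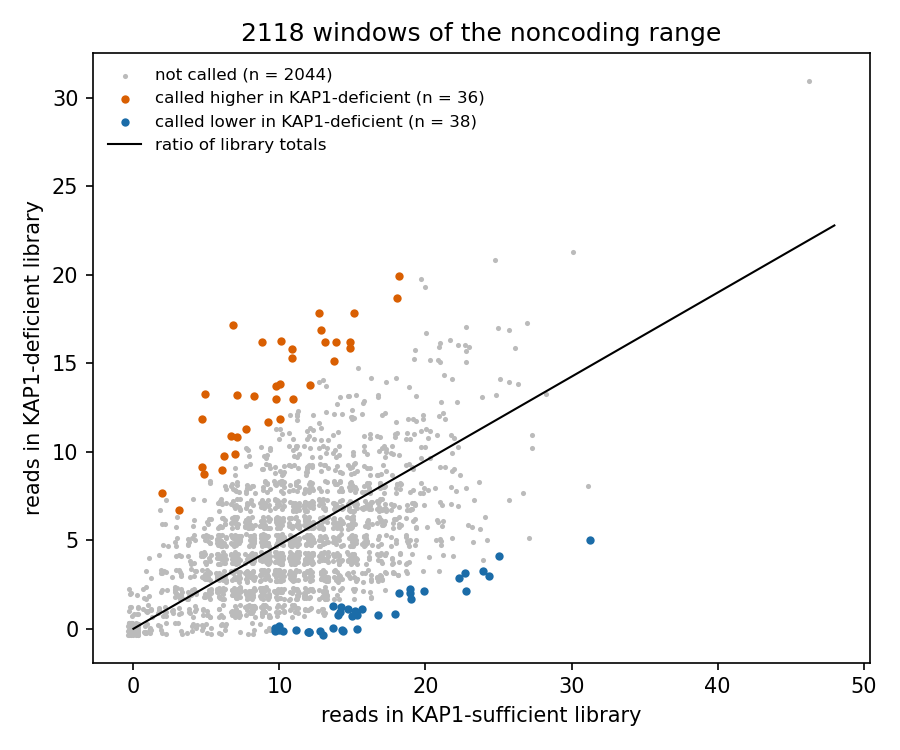
Reads in the KAP1-deficient library (vertical axis) against reads in the KAP1-sufficient library (horizontal axis) for each noncoding-range window, with a small random offset so that equal counts can be seen. The line is the ratio of library totals, and the 36 windows called higher (orange) and 38 called lower (blue) lie at the edges of a single cloud.

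Calls in both directions rested on few reads, with a median total of 24 in windows called higher and 15.5 in those called lower. The noncoding-range windows called higher held 2 to 18 KAP1-sufficient reads and 7 to 20 KAP1-deficient reads, with medians of 10 and 13.5. ENSMUSG00000085304 held 7 and 17 reads, a ratio of 5.12 (2.02 to 14.6). ENSMUSG00000086154 held 5 and 13, a ratio of 5.48 (1.83 to 19.6), and ENSMUSG00000084924 held 2 and 8, a ratio of 8.43 (1.68 to 81.5). These are the 3 windows whose interval lay farthest above 1 among 1702, so their single-window intervals are too narrow.

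The windows called lower held 10 to 31 KAP1-sufficient reads and 0 to 5 KAP1-deficient reads, with medians of 15 and 1, and 15 of the 38 had no KAP1-deficient read. ENSMUSG00000086179 held 15 KAP1-sufficient reads (8.40 to 24.7) and 0 KAP1-deficient reads, a ratio of 0 (0 to 0.59). With the count of 0 set to a floor of 3 reads it was 2.37-fold lower. ENSMUSG00000086214 and ENSMUSG00000086404 held 14 and 0 reads each, a ratio of 0 (0 to 0.64), or 2.22-fold lower with the same floor. That floor does not cover the counting error of the KAP1-sufficient reads, and the intervals allow smaller differences. These 3 windows were picked as those with the interval farthest below 1 among 1702, with ties taken by identifier. Their single-window intervals are therefore too narrow. Of the calls, 24 of 36 higher windows and 12 of 38 lower windows held 20 reads or more over both libraries.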

How the data were processed

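The authors deposited 1 table of read counts around transcription start sites, whole numbers in 2 columns named by genotype, per the file headers. The submitters' processing notes name Bowtie2 2.2.9 (an aligner), Picard 2.1.1, bedtools 2.26.0 and mm10. The window width, the annotation and any read filter were not given in the sources used here. Filters on mapping quality can empty windows in repeated sequence. The gene tables used here do not pair Ensembl mouse identifiers with names or positions, so no names, positions or sequences are given.

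The members, ranges and rules were chosen with earlier results of these data known. Counts were scaled to library totals. Pooled ratios have exact conditional intervals, shares Clopper-Pearson intervals and read sums Poisson intervals, all at 95%. Calls across all windows used a mean of at least 5 reads, 2 reads added in proportion to library size, and a 2-fold ratio. Trends with read level used 1 seeded division of the KAP1-sufficient reads. Named windows were the 5 with the most reads, the 3 calls in each direction with the interval farthest from 1, and the windows at the range ends. With 1 column for each genotype no test or p-value was possible. Alternatives covered scaling, filters, reads added, interval, range, reference and sorting. Python 3.11.15, numpy 2.4.6, scipy 1.17.1, pandas 2.3.3 and statsmodels 0.14.6 were used.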

Additional observations from a re-analysis of the deposited data

How the results depend on the processing

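Depth limits every statement on a single window. The noncoding-range ratio (0.99) was 1.02 with the median of ratios and 1.04 with scaling to coding-range windows, and 0.97 (0.95 to 1.00, upper limit under 1) without the 1% of windows with the most reads. The quotient of 1.04 against the coding range became 0.99 (0.96 to 1.01) against all other windows and, chosen after seeing the data, 0.99 against the last coding-range stretch; its interval stayed above 1 under 4 other settings that could change it (mean reads, range, identifier numbers below 40000, most-read windows). Mean reads (10.6 and 4.97) were 10.4 and 4.80 without the 1% of windows with the most reads and 11.1 and 5.20 without empty windows. The quotients of mean reads (0.88 and 0.92) were 0.84 and 0.88 against identifier numbers below 40000, 0.90 and 0.94 without empty windows, and 1.13 and 1.12 against all other windows. The empty share (4.53%) was 5.52% when 1 read was allowed. It was 1.94 times that of the coding range, 2.62 times that of identifier numbers below 40000, 0.37 times that of all other windows and 0.74 times that of the last coding-range stretch. The change with read level (1.21) was 1.30 sorted on both libraries and 1.30 sorted on KAP1-deficient reads. Over 20 other divisions, chosen after seeing the data, it ran from 1.11 to 1.27, with the interval above 1 in all 20. The 36 higher and 38 lower calls became 5 and 6 with 10 reads added. These were 0.29% and 0.35% of the 1702 noncoding-range windows tested, against 0.31% and 0.32% of all windows tested. A 99% interval gave 11 and 5 calls, 0.65% and 0.29%, against 0.67% and 0.28% of all windows tested. Raising the minimum mean to 10 reads left 581 noncoding-range windows, with 24 and 12 calls. Their shares were 4.13% and 2.07%, against 4.10% and 1.82% of all windows tested at that minimum. No paired analysis was possible because the table held 1 column for each genotype.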
